A study of Mus musculus with 17 samples.

Results

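The DNAJ (HSP40) genes encode the J proteins, co-chaperones that hand unfolded proteins to the HSP70 chaperones. They were measured in laser-captured dentate gyrus neurons of mice that had lost the transcription factors FOXO1, FOXO3 and FOXO4 and of wild-type mice. Every gene whose symbol starts with Dnaja, Dnajb or Dnajc and a number, and that a probe set names alone, was taken, which gave 44 of the 18193 genes on the array. By the names, 4 belong to class A, 13 to class B and 27 to class C. Their 104 probe sets are part of the 45037 that are not controls. Where a gene had several, the probe set with the highest mean level over the 15 samples stood for it. The 3 probe sets of Dnajc19 carry a further symbol and were left out.

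The KO group held 8 samples of genotype FOXO 1/3/4 KO, in which floxed Foxo alleles were deleted with hGFAP-cre, a transgene that is active in common progenitors of neurons and glia. The WT group held 7 wild-type samples. According to the study's methods the mice were of a mixed FVB and B6 background, and no age or sex is given for these samples. The labels name only brain as the tissue. Each sample has a mark of its own, read here as an animal though the labels do not say so, and p-values therefore measure a spread that may partly be technical. A further KO sample of mark 433 and a further WT sample of mark 437 are marked CA13, which the labels do not explain, and stood in neither group.

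J proteins share a J domain that makes HSP70 hydrolyse ATP and close on its client. Class A and B proteins resemble the bacterial DnaJ most and bind unfolded clients themselves, while class C proteins share only the J domain and recruit HSP70 to single tasks, such as uncoating clathrin vesicles, importing proteins into mitochondria or building ribosomes. In neurons, members of the family keep synaptic vesicle proteins folded and hold back aggregates. The study profiled these neurons to ask which cell processes change when FOXO is lost, and the comparison here asks how the mRNA of these co-chaperones differed.

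Foxo1 checked the labels: its level, on the log2(signal + 32) scale used throughout, was 8.11 ± 0.77 (SD, n = 8) in KO and 13.19 ± 0.50 (SD, n = 7) in WT, a log2 fold change of -5.08 (adjusted p = 1.16e-07 from limma). The library labelled 433, the unmarked KO sample of that mark, went against the dentate gyrus. Its mean level over 12 granule neuron markers was 7.49 and over 13 CA pyramidal neuron markers 10.29. The CA13-marked sample of mark 437 resembled it, with 7.41 and 10.17. The other 15 libraries, the CA13-marked sample of mark 433 included, lay between 10.47 and 10.81 and between 7.75 and 8.61. Foxo1 was 9.82 in the CA13-marked WT sample of 437 and 8.52 in the library labelled 433. A low Foxo1 level thus does not check the KO label of a library with low granule markers. The 3′ Gapdh control outshone the 5′ one by 5.04 to 6.41 (log2) in KO and 5.11 to 6.23 in WT. The number of arrays limits the precision.

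No DNAJ gene differed between KO and WT past the threshold. In 36 of the 38 members with no signal under 32, the 95% confidence interval of the probe set used excluded a 2-fold change. Of the 44 members 0 had an adjusted p under 0.05 (limma, Benjamini-Hochberg over all probe sets), against 2 of all genes, or 0.011%. At an unadjusted p under 0.05, 0 were higher and 0 lower, where 1.53% of all genes were higher and 1.52% lower. In 0 members did the KO and WT samples fail to overlap, as they did in 0.022% of all genes. On the log2(signal + 32) scale the 95% confidence interval excluded a 2-fold change in 41 members and a 1.5-fold change in 32. The 41 include 5 dim members, in which the added 32 compresses a fold change. With 1 added in place of 32, the interval excluded a 2-fold change in 36 members, none of them dim. The standard error (SE) of these differences ran from 0.10 to 0.31, with 0.18 at the median. Where a p misses the threshold, a difference smaller than these intervals may still exist.

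The log2 fold changes ran from -0.24 for Dnajc3 to 0.50 for Dnajb12, with 29 members above 0 and 15 below. Above 0 were thus 65.9% of the members and 52.4% of all genes. The median was 0.07 over the family and 0.01 over all genes. It was 0.10 in class A, 0.10 in class B and 0.02 in class C. The samples' own medians over the family spread around their group with an SD of 0.11, and those over class A with an SD of 0.25. The median fold changes were smaller than this spread of single samples, which is wider than the error of a group difference. No test of the medians was run.

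**Figure D1:**
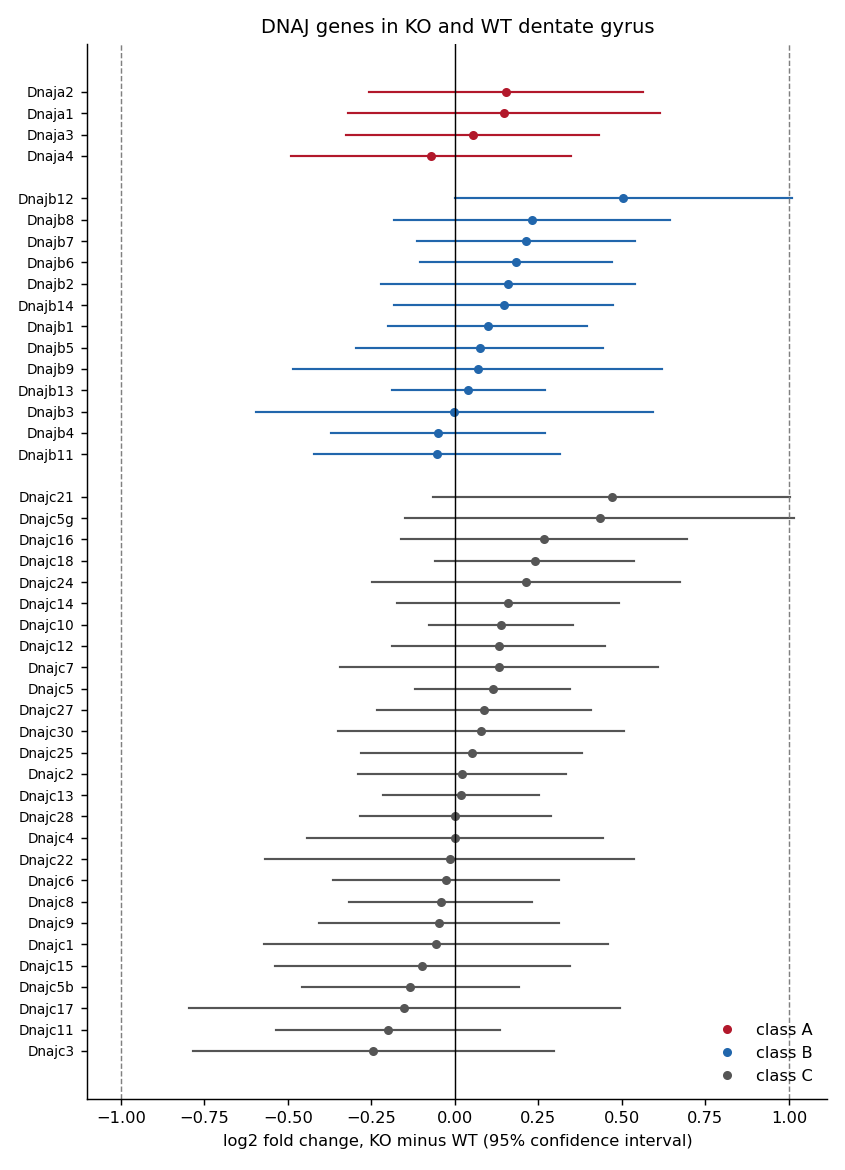
KO minus WT on the log2 scale (x axis) for the 44 DNAJ genes, with the 95% confidence interval from limma as a line, grouped by class on the y axis; dashed lines mark a 2-fold change. The intervals of 41 genes lie inside the dashed lines, and those of Dnajb12, Dnajc21 and Dnajc5g cross the upper one.

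Promoters were searched for the binding letters of 3 factors that bear on these genes, since FOXO is the deleted factor, HSF1 drives heat shock genes and ATF6 drives ER chaperones. The windows run from 250 bases before to 50 bases after an annotated start (RefSeq, GRCm38.p6) and were found for 36 of the 44 members, 49 windows in all. Both strands were searched. The FOXO element GTAAACA stood in 3 windows, 6.12% of the members' windows against 3.65% of all 32851. The heat shock element GAANNTTCNNGAA stood at 1 place, ahead of Dnajb6, where 2 annotated starts share it. It was found in 0.603% of all windows. The ER stress response element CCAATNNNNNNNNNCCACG stood ahead of Dnajc3 alone, and in 0.119% of all windows. A match describes letters and no binding. The stretches that hold them are given because these genes return below, with the matched letters in capitals.
FOXO element, Dnajc10 (chr2:80315243-80315303, plus strand): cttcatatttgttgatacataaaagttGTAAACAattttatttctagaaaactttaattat
FOXO element read on the other strand, Dnajc6 (chr4:101507915-101507975, plus strand): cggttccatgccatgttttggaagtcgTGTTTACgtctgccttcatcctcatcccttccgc
FOXO element, Dnajb12 (chr10:59879336-59879396, plus strand): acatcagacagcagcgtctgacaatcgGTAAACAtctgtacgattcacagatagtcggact
Heat shock element, Dnajb6 (chr5:29735825-29735891, plus strand): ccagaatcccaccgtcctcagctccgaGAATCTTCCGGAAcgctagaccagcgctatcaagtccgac
ER stress response element, Dnajc3 (chr14:118937800-118937872, plus strand): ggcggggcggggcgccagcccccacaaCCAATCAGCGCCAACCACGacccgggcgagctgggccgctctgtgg
Of the genes with a FOXO element in the window, Dnajb12 differed by 0.50 on the log2 scale, Dnajc10 by 0.14 and Dnajc6 by -0.03, and none passed the test.

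In the cytosol, where J proteins work with HSC70 and inducible HSP70, 7 of 9 members had a positive log2 fold change and the median was 0.13. Dnaja1 (chromosome 4, 40722468 to 40734965 of GRCm38.p6), the class A co-chaperone of general folding, had levels of 12.80, 13.71 and 14.46 in KO (lowest, median and highest of 8) and of 12.86, 13.67 and 14.02 in WT (of 7). Its log2 fold change was 0.15 (SE 0.22, 95% confidence interval -0.32 to 0.61). It was 0.04 without the library labelled 433, which was the highest sample, and ran from 0.03 (without WT 392) to 0.27 (without KO 390) over the samples left out in turn. The lowest samples came from the smaller of the 2 array series described below. Its relative Dnaja2 had 11.91, 12.42 and 12.79 in KO against 11.22, 12.40 and 12.70 in WT, a difference of 0.15 (SE 0.19). The heat-inducible Dnaja4 had a log2 fold change of -0.07 (SE 0.20).
Dnajb1, the classical heat-inducible HSP40, had 13.23, 13.42 and 13.87 in KO and 12.77, 13.45 and 13.85 in WT. The log2 fold change was 0.10 (SE 0.14, 95% confidence interval -0.20 to 0.40) and the groups overlapped over most of their range. Dnajb6, which holds back polyglutamine aggregates, had 11.66, 11.77 and 12.30 in KO and 11.22, 11.68 and 11.98 in WT. Its log2 fold change was 0.18 (SE 0.14), and 1 KO sample, 391, stood above all others. Dnajb2, a neuronal J protein that binds ubiquitin, had a log2 fold change of 0.16 (SE 0.18). Its value was 0.40 in the larger array series alone (unadjusted p = 0.0395) and -0.46 in the smaller alone, so that the series did not share a direction. Dnajc7, which bridges HSP70 and HSP90, had 0.13 (SE 0.23).

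Among the 9 members of the endoplasmic reticulum (ER), 6 had a positive log2 fold change and the median was 0.14. Dnajb12 (chromosome 10, 59879583 to 59899296), an ER membrane protein that helps degrade misfolded membrane proteins, came closest to a difference. Its levels were 7.25, 8.01 and 8.34 in KO and 6.40, 7.68 and 7.84 in WT. The log2 fold change was 0.50 (SE 0.24, 95% confidence interval -0.00 to 1.01, unadjusted p = 0.0502 and adjusted p = 1.0 from limma, two-sided exact permutation p = 0.0605 over 6435 splits). The upper samples were KO, where 5 of 8 lay above every WT sample, but the groups overlapped. The lowest values were those of WT samples 41 and 392, and the difference was 0.33 without WT 41 and 0.41 without WT 392. Its dimmer probe set had 0.23 (SE 0.23). Dnajb14, its close relative in the ER membrane, had 0.15 (SE 0.16), and Dnajc18, of the same group, had 9.23, 9.74 and 9.98 in KO and 9.13, 9.45 and 9.69 in WT, a log2 difference of 0.24 (SE 0.14).
Inside the ER, the co-chaperones of the HSP70 Hspa5 did not move one way. Dnajb9 (ERdj4), which is induced when proteins unfold in the ER, had 11.68, 12.55 and 13.26 in KO and 11.15, 12.52 and 13.003 in WT. The log2 fold change was 0.07 (SE 0.26), and it was -0.04 without the library labelled 433 and -0.15 without WT 392. Dnajb11 (ERdj3) had -0.05 (SE 0.18). Dnajc10 (ERdj5), a disulphide reductase, had 12.28, 12.31 and 12.68 in KO and 12.001, 12.20 and 12.47 in WT, a log2 fold change of 0.14 (SE 0.10). Dnajc3 (P58IPK; chromosome 14, 118937932 to 118981702), which restrains the kinase PERK, was the lowest of the family. It had 8.67, 9.52 and 10.01 in KO and 8.57, 9.86 and 10.33 in WT, a log2 fold change of -0.24 (SE 0.26, 95% confidence interval -0.78 to 0.30). All 5 of its probe sets had a log2 fold change below 0, from -0.24 to -0.02. Leaving out 1 sample moved the value between -0.13 (without KO 390) and -0.44 (without WT 392, SE 0.22, unadjusted p = 0.0602 from limma). It was -0.15 without the library labelled 433, -0.14 without WT 206 and -0.08 as the mean of all its probe sets.

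The J proteins of synapses and endosomes had a median log2 fold change of 0.02. Dnajc5, the cysteine string protein of synaptic vesicles, had 13.52, 13.90 and 14.02 in KO and 13.30, 13.77 and 13.88 in WT. Its log2 fold change was 0.11 (SE 0.11, 95% confidence interval -0.12 to 0.35). Dnajc6, the neuronal auxilin that uncoats clathrin vesicles, had 12.05, 12.46 and 13.05 in KO and 11.96, 12.62 and 12.84 in WT, a difference of -0.03 (SE 0.16). Dnajc13, an endosomal protein, had 0.02 (SE 0.11). For the brightest probe set of each of these 3 genes the interval excluded a change of 1.5-fold. Other probe sets were less precise. The dimmer one of Dnajc13 had 0.51 (SE 0.34), those of Dnajc5 ran from 0.06 to 0.33 and those of Dnajc6 from -0.14 to 0.10. The 5 members of mitochondria had a median of 0.00, with -0.20 for Dnajc11 (SE 0.16) and 0.05 for Dnaja3 (SE 0.18).
The 6 members of the ribosome, RNA and nucleus had a median of -0.01. Among them Dnajc21 (chromosome 15, 10446763 to 10470568), which helps mature the large ribosomal subunit, had the second smallest p of the family. Its levels were 7.78, 8.35 and 8.73 in KO and 6.37, 8.20 and 8.28 in WT, and its log2 fold change was 0.47 (SE 0.25, unadjusted p = 0.082 and adjusted p = 1.0 from limma, exact permutation p = 0.0583). In 6 of 8 KO samples it lay above all WT samples. The 5 probe sets of Dnajc21 ran from -0.12 to 0.47, and their mean gave 0.17. The lowest WT sample was 392, at 6.37 against 7.94 for the next, and without it the log2 fold change was 0.21 (SE 0.16), and exchanging the library labelled 433 for its CA13-marked counterpart gave 0.30. The remaining members with the smallest p were Dnajc5g (0.43, SE 0.28), Dnajb7 (0.21, SE 0.16) and Dnajc16 (0.27, SE 0.20). Single samples weighed on them, since Dnajb7 had 0.06 without KO 386 and Dnajc16 had 0.15 without KO 384 and 0.15 without WT 41. The dim Dnajb7 and Dnajc5g had 0.83 and 0.94 with 1 added in place of 32.

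**Figure D2:**
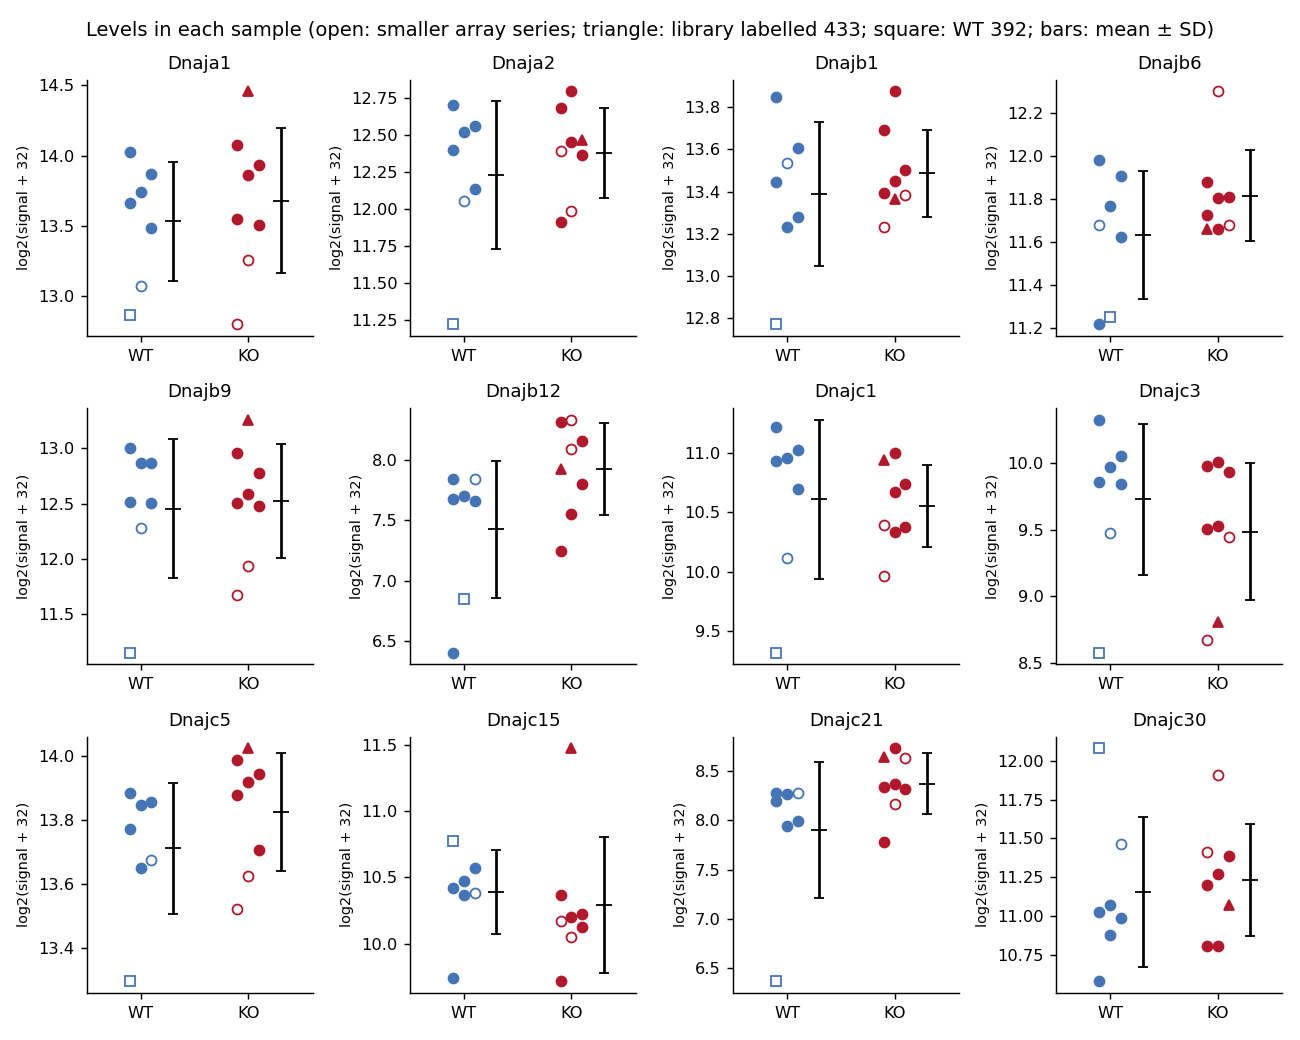
Level on the y axis, as log2(signal + 32) after quantile normalization, of 12 DNAJ genes in each of the 7 WT and 8 KO samples, with the mean ± SD beside each group. Open symbols are the 4 arrays of the smaller array series, the triangle is the library labelled 433 and the square is WT 392; KO and WT overlap for every gene, and the open symbols lie lowest for Dnaja1 and Dnajb9 and highest for Dnajc30.

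Members made in testis or ciliated cells were mostly dim. Dnajb13, of the sperm and cilium axoneme, had a signal under 32 in all 15 samples, Dnajb7 in 14 and Dnajc5b in 12. Signals under 32 occurred in 3 more members, Dnajc22, Dnajb3 and Dnajc5g, and in none of the other 38. For dim genes the added 32 understates a fold change.

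Probe sets of a gene often disagreed. Of the 28 members with several, 19 had probe sets on both sides of 0. Over the 104 probe sets the log2 fold changes ran from -0.33 to 0.51, both from probe sets that were not their gene's brightest, those of Dnajc2 and Dnajc13. For Dnajc13 the brightest had 0.02 (SE 0.11) and the dimmer one 0.51 (SE 0.34). At an adjusted p under 0.05 there were 0 probe sets, and at an unadjusted p under 0.05 there was 1, a dim one of Dnajc24 with a log2 fold change of -0.30, whose brighter neighbour had 0.21.

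**Figure D3:**
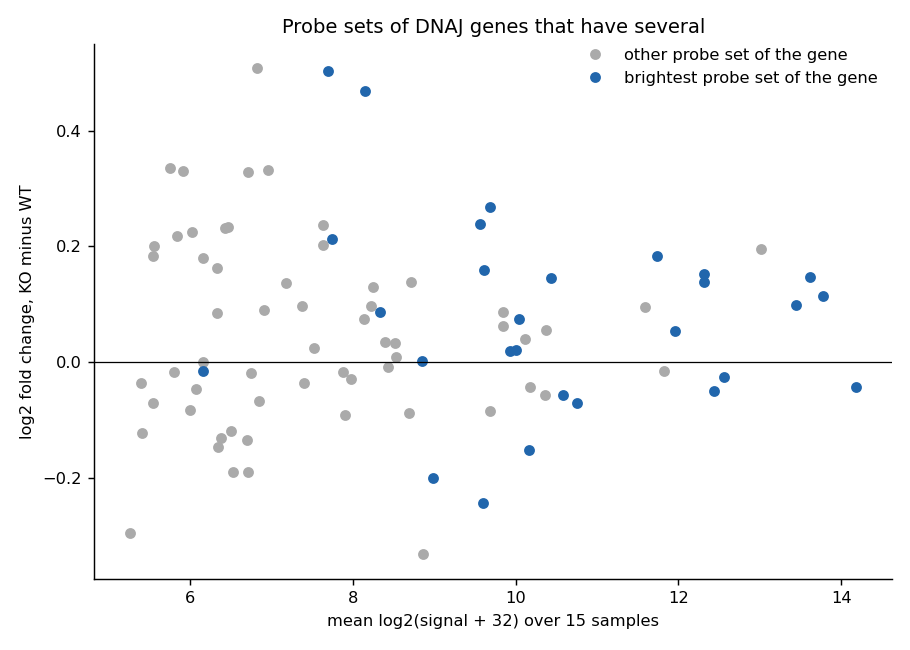
Log2 fold change (KO minus WT, y axis) of each probe set against its mean level, as log2(signal + 32) over the 15 samples (x axis), for the 28 DNAJ genes with several probe sets. Blue points are the probe set used for the gene and grey points the others; most of the grey points lie at lower levels.

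More members differed between array series than between genotypes, as was true of all genes. Of these 4.24% were lower and 6.33% higher by series at an adjusted p under 0.05, while 0.011% differed by genotype. A series number in the labels splits the 15 samples into 11 arrays (6 KO and 5 WT) and 4 arrays (KO 391, KO 390, WT 393 and WT 392), and what it stands for is not said. With genotype in the same limma fit, 5 members were lower in the smaller series at an adjusted p under 0.05 and 1 was higher, or 11.4% and 2.27% of the family, against 4.24% and 6.33% of all genes. The comparison was chosen after the values were seen. The 5 were Dnaja1, Dnajb9, Dnajc1, Dnajc3 and Dnajc5, and the 1 was Dnajc30, a mitochondrial protein. Of the 5, Dnajb9, Dnajc1 and Dnajc3 belong to the ER, whose other members did not pass. Dnaja1 belongs to the cytosol and Dnajc5 to synaptic vesicles.
Dnajb9 had 11.15, 11.68, 11.94 and 12.28 in the smaller series and from 12.48 to 13.26 in the larger, a difference of -0.99 (SE 0.18, adjusted p = 0.00313 from limma). Dnaja1 lay between 12.80 and 13.26 in the smaller and between 13.49 and 14.46 in the larger, a difference of -0.83 (SE 0.15, adjusted p = 0.00357 from limma). In both genes every array of the smaller series lay below every array of the larger, which held for 1.88% of all genes. Dnajc30 lay above, at 11.41 to 12.08 against 10.58 to 11.39, with a difference of 0.71 (SE 0.15, adjusted p = 0.00788 from limma), as 2.77% of all genes did.
Dnajc1, an ER membrane J protein that binds ribosomes, differed by -0.86 (SE 0.18), Dnajc3 by -0.77 (SE 0.22) and Dnajc5 by -0.33 (SE 0.09). The median difference was -0.08 over the family and 0.07 over all genes. Without WT 392, the count fell to 3 lower (Dnaja1, Dnajb9 and Dnajc1) and 0 higher, where 1.62% of all genes were lower and 1.7% higher. It was also 3 lower without KO 903, KO 390, WT 206, WT 41 or WT MS17, against 1.64% to 3.89% of all genes. Without KO 391 or WT 393, 2 were higher, against 5.62% and 6.11% of all genes. Dnaja1, Dnajb9 and Dnajc1 stayed past the threshold without each of the 15 samples in turn. With the series as a block, the difference between KO and WT was 0.03 for Dnajb9 (SE 0.16) and 0.12 for Dnaja1 (SE 0.14), so that the standard errors were smaller and neither gene differed. Of the HSP70 partners 3 of 15 were lower in the smaller series, Hspa13, Hspa1b and Hspa4, and 0 higher. Of the 19 nucleotide exchange factors and regulators of HSP70, 4 were higher there (Bag2, Bag5, Bag6 and Stub1) and 2 lower (Hspa4 and Sgtb), with a median of 0.23. Of the 23 ER partners 2 were lower, Atf4 and Canx, and 1 higher, Sec61b. Of 15 heat shock response genes 2 were lower, Cacybp and Hspa1b, and 0 higher. These lists share genes, so that Hspa4 and Hspa1b are counted more than once, and over all genes 4.24% were lower and 6.33% higher. The log2 difference between the Gapdh controls was 5.11 to 5.37 in the smaller series and 5.04 to 6.41 in the larger. The part of RNA quality, age, sex or handling in the difference between series was not tested.
WT 392 was often the edge of its group. It was the lowest WT sample in 19 of the 44 members, or 43.2%, against 22.7% of all genes, and the highest in 10, or 22.7% against 32.1%. Other samples stood at an edge too. WT 206 was the highest WT sample in 14 members, or 31.8% against 11.4% of all genes, and the lowest in 4, or 9.09% against 14.4%. KO 390 was the lowest KO sample in 11, or 25.0% against 14.4%, and the highest in 7, or 15.9% against 19.5%.

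Between the library with high granule markers and the one with low granule markers of the same mark, no member differed past 2-fold in both marks. There is 1 library of each kind per mark, so there is no test. The granule-marker library was the unmarked one of 437 (WT) and, against its label, the CA13-marked one of 433 (KO). Past 2-fold in both marks, 0 members were higher and 0 lower, where 2.24% of all genes were higher and 2.54% lower. Past 1.5-fold, 1 was higher against 5.82% of all genes, and 4 were lower against 6.89%.
Dnajc9, a histone chaperone, was the one higher in the granule-marker library, by 0.73 in mark 437 and 0.72 in mark 433. The 4 lower were Dnajc15, of the mitochondrial inner membrane (-1.03 and -0.86), Dnaja1 (-0.75 and -0.79), Dnajb9 (-0.74 and -0.84) and Dnajc21 (-0.72 and -1.37). The median difference over the family was -0.22 in mark 437 and -0.14 in mark 433, while over all genes it was -0.03 and -0.01. Of the members 21 (47.7%) were lower in the granule-marker library in both marks and 7 (15.9%) higher, against 33.7% and 30.3% of all genes.

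**Figure D4:**
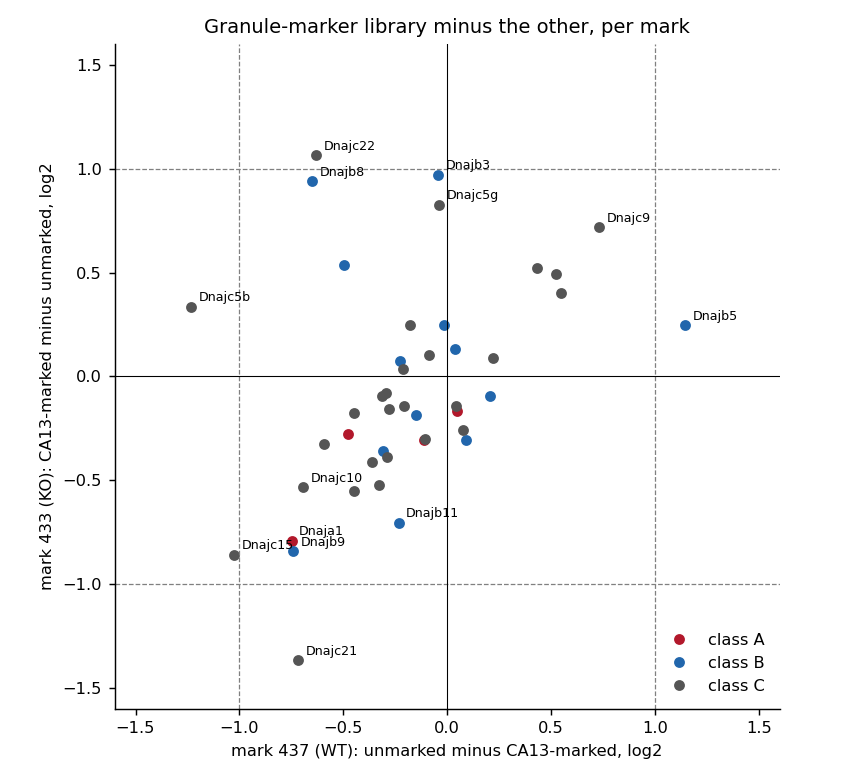
Difference in log2(signal + 32) between the granule-marker library and the other library of the same mark, for mark 437 (x axis) and mark 433 (y axis), 1 point per DNAJ gene coloured by class; dashed lines mark 2-fold. No gene lies past 2-fold in the same direction in both marks, and Dnajc15, Dnaja1, Dnajb9 and Dnajc21 are the 4 that lie past 1.5-fold lower in both, while Dnajc5b is lowest in mark 437 (-1.23) but at 0.34 in mark 433.

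Set against all the other libraries rather than one, both libraries with low granule markers stood above all 15 in 6 members (13.6%, against 6.87% of all genes) and below all 15 in 2 (4.55%, against 5.27%). This count was chosen after the values were seen, and the 2 libraries differ in genotype, KO in one and WT in the other. Dnajc15 (chromosome 14, 77826217 to 77874917) had 11.47 in the library labelled 433 and 11.39 in the CA13-marked one of 437, while the others ran from 9.72 to 10.76. Dnaja1 had 14.47 and 14.42 against 12.80 to 14.09. Dnajb9 had 13.26 and 13.61 against 11.14 to 13.01.
Auxilin, Dnajc6, had 13.05 and 13.25 against 11.95 to 12.96. Dnajc10 had 12.68 and 12.75 against 11.999 to 12.47. Dnajc14, an ER membrane protein that helps export receptors, had 10.22 and 10.11 against 9.08 to 9.94. In each of these 6 genes both libraries lay above the highest of the other 15.
The 2 below were Dnajc9, with 10.22 and 10.57 against 10.61 to 11.37, and Dnajc8, a splicing-associated J protein, with 13.73 and 13.74 against 13.82 to 14.55. Averaging all probe sets of a gene kept 4 of the 6 above, without Dnaja1 and Dnajc14. Dnajc2 and Dnajc27 joined them, so that 6 stood above, against 5.86% of all genes. Without quantile normalization 7 stood above, with Dnajc5 added, against 6.88%. These values describe 2 libraries that carry CA markers, and interneuron markers stood apart in them too, with a mean level of 10.49 and 10.45 against 9.60 to 10.34 and 3 of 6 genes above all 15 others. Their part in the levels of the DNAJ genes, and that of handling, was not tested.

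**Figure D5:**
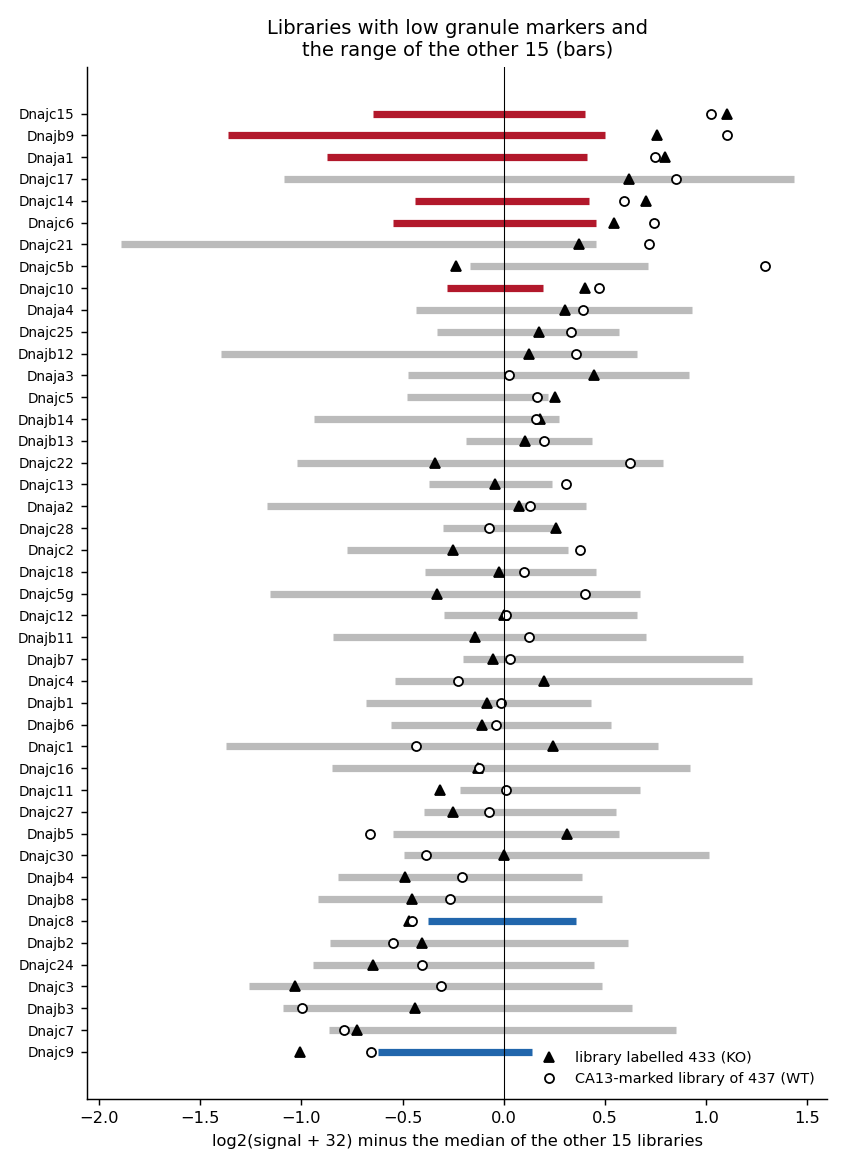
Level of each DNAJ gene in the library labelled 433 (triangles) and the CA13-marked library of 437 (circles), in log2(signal + 32) minus the median of the other 15 libraries (x axis); bars span those 15. Red bars mark the 6 genes in which both libraries lie above the bar and blue bars the 2 in which both lie below.

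Among the proteins that J proteins work with, no gene passed the adjusted threshold between KO and WT either. Of 15 HSP70 genes 0 passed an adjusted p under 0.05, while at an unadjusted p under 0.05 there were 1 higher and 0 lower, with a median log2 fold change of 0.03. That gene was Hspa1a, an inducible HSP70, at 10.09 ± 0.57 (SD, n = 8) in KO and 9.41 ± 0.34 (SD, n = 7) in WT, a log2 fold change of 0.68 (SE 0.23, unadjusted p = 0.00865, adjusted p = 1.0 from limma). Its highest KO value, 11.40, was that of the library labelled 433, and without it the log2 fold change was 0.49 (SE 0.16, unadjusted p = 0.00662 from limma). Its neighbour Hspa1b had 0.36 (SE 0.32), and the 2 are near-identical copies whose probe sets may share signal. The constitutive Hspa8 had 0.04 (SE 0.07), and Hspa5, the HSP70 of the ER, 0.03 (SE 0.34).
Of the 19 nucleotide exchange factors and regulators of HSP70, unadjusted p-values under 0.05 were found for 0 higher and 0 lower genes. Their median was -0.05, and the smallest p belonged to Bag1 (-0.27, SE 0.17) and Bag3 (-0.33, SE 0.28). Of 15 measured genes of the heat shock response, Hspa1a again was the 1 that was higher, and the median was -0.02. The 23 ER folding and degradation partners had 0 and 0 with a median of 0.03, and their smallest p belonged to Xbp1 (-0.30, SE 0.16) and Ddit3 (-0.35, SE 0.19). The 3 measured J proteins named otherwise had 0 and 0, among them Hscb at -0.16 (SE 0.29) and the auxilin relative Gak at -0.06 (SE 0.16).
In the 2 libraries with low granule markers, 4 of the 15 HSP70 genes stood above all 15 others, Hspa1a, Hspa1b, Hspa13 and Hyou1, and 0 below, where 6.87% of all genes stood above and 5.27% below. Hyou1, an exchange factor and chaperone of the ER, had 13.09 and 12.86 against 11.24 to 12.77. Of the 23 ER partners 5 stood above, Atf4, Edem1, Hyou1, Sec61a1 and Sec63, and 0 below, with Hyou1 counted in both lists. Of the 19 exchange factors and regulators 2 stood above and 1, Bag4, below. Sec63, itself a J-domain protein of the ER channel, had 11.28 and 11.45 against 10.49 to 10.94. Hspa5 lay within the range, at 12.69 and 13.24 against 11.28 to 14.06.

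Markers of these and other cells were measured beside the DNAJ genes. All 12 granule markers had a negative log2 fold change, with a median of -0.33, while without the library labelled 433 the median was -0.03 and 5 were positive. Of the 13 CA markers Wfs1 was higher at an unadjusted p under 0.05 (0.47, unadjusted p = 0.0221 and adjusted p = 1.0 from limma). Without that library Wfs1 had 0.31 (unadjusted p = 0.0225 and adjusted p = 1.0 from limma) and Neurod6 was lower at that threshold. All 6 measured oligodendrocyte markers had a positive log2 fold change, with a mean level of 10.03 to 11.07 in KO and 9.36 to 10.57 in WT. Of these 2 were higher at an unadjusted p under 0.05, Cnp (0.66) and Cldn11 (0.57), the second of which had an unadjusted p of 0.054 from limma without WT 392, and without the library labelled 433 Mobp was higher too. Of the 6 interneuron markers 4 were positive, as were 1 of 5 endothelial ones and 3 of 6 of ependyma and choroid plexus, and none of these passed an unadjusted p under 0.05. The 7 astrocyte markers had a mean level of 10.34 in KO and 10.30 in WT, and the 7 microglia markers one of 8.54 and 8.58. Their part in the levels of the DNAJ genes was not tested, and in these bulk samples fewer cells of a type and less RNA per cell cannot be told apart.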

How the data were processed

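RNA of laser-captured brain tissue from 17 mouse samples was measured on Affymetrix arrays. The authors deposited linear signal intensities, 1 for each array and probe set. MAS5 is named in the submitters' processing notes and RMA with SAM in the study's methods. The linear values do not take the path of RMA values, and SAM was not repeated. A common scaling limits levels to those relative to the whole array. Gene names came from the platform annotation, in which 34945 probe sets carry 1 symbol. All 44 members were found in a RefSeq gene table of GRCm38.p6. For the probe sets no build is named in the sources used here.

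After removal of 64 controls, log2(signal + 32) was taken and the 15 unmarked arrays quantile normalized (17 for the comparisons with CA13-marked samples). Genotype was tested without covariates on 45037 probe sets in limma 3.58.1 (R 4.3.3), by eBayes with trend, with Benjamini-Hochberg adjustment. Two-sided exact permutation tests ran over all 6435 splits. The steps were tested on simulated data. The highest correlation between arrays was 0.98, and no array repeated another. Alternatives covered scaling, a smaller and a larger pseudocount, dim probe sets (mean signal under 64), samples, array series, RNA quality, array weights, the methods' t-test and the probe set rule.

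The members and gene lists were chosen with earlier results of these data known. Members were named by role, by the 8 smallest p, or by a 2-fold difference in both marks, and from each partner list the 2 with the smallest p. Other partners, Dnajc11, the members that differed by array series and those that lay outside the range of the other libraries were named after their values were seen.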

Additional observations from a re-analysis of the deposited data

Results flagged for a closer look

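Within a group, 1 sample stood far from the others in 14 of the 88 combinations of a member and a group. The nominal rate is about 1 in 20. The share over all genes is not given, so no excess in the family can be read from the count. WT 392 accounted for 6, and over all genes it was the lowest WT sample in 22.7% and the highest in 32.1%. It was the lowest WT sample for Dnajb9 at 11.15 (others 12.28 to 13.003), Dnajb14 at 9.49 (others 10.40 to 10.68), Dnajc5 at 13.30 (others 13.65 to 13.88), Dnajc6 at 11.96 (others 12.49 to 12.84) and Dnajc21 at 6.37 (others 7.94 to 8.28), and the highest for Dnajc4 at 10.60 (others 8.83 to 9.40).

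The library labelled 433 was the highest KO sample for Dnajc10 at 12.68 (others 12.28 to 12.47) and for Dnajc15 at 11.47 (others 9.72 to 10.37). In WT, sample 206 was the lowest for Dnajc15 at 9.74 (others 10.37 to 10.77). Among KO samples, 391 was the highest for Dnajb6 at 12.30 (others 11.66 to 11.88), 384 for Dnajc16 at 10.63 (others 9.57 to 9.93) and for the dim Dnajc5b at 6.10 (others 5.22 to 5.61), 386 for the dim Dnajb7 at 6.45 (others 5.14 to 5.36) and 212 for the dim Dnajb13 at 5.77 (others 5.31 to 5.49).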

How the results depend on the processing

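No member passed an adjusted p under 0.05 in any of the fits of KO against WT. The medians of the family and of each class moved by less than the spread between single samples, which is wider than the error of a group difference. The class A median, 0.10 in the main fit, was -0.05 in the smaller array series alone. With array weights the medians of classes A, B and C were 0.04, 0.04 and 0.06, so that their order was not stable. The count of members higher at an unadjusted p under 0.05, which was 0, became 1 (Dnajb12) without quantile normalization, with the larger pseudocount, with a filter on dim probe sets, with the CA13-marked sample of 433, with RNA quality as a covariate and with the mean of all probe sets, where 1.31% to 1.82% of all genes were higher. It became 2 (Dnajb12 and Dnajc18) with the array series as a block (2.04% of all genes) and with array weights (2.35%), and 1 (Dnajb2) in the larger array series alone (2.18%). In the smaller series alone 2 were lower (Dnajb3 and Dnajc17; 2.11% of all genes). Without 1 sample the count ran from 0 to 3, the highest without KO MS15 (Dnajb12, Dnajc18 and Dnajc21; 1.88% of all genes).

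Of the 22 named members, 12 changed sign under some setting. With the CA13-marked sample of 433, Dnajb9 had -0.0365 and Dnajc13 -0.0011. In the larger series alone Dnaja2 had -0.019 and Dnajc13 -0.0068. In the smaller alone Dnaja3 had -0.23, Dnajb2 -0.46, Dnajb7 -0.0763 and Dnajc3 0.0368. With array weights Dnaja1 had -0.0123, Dnajb9 -0.14 and Dnajc13 -0.0109. Leaving out 1 sample at a time gave -0.13 to 0.0475 for Dnajc6, -0.0372 to 0.0554 for Dnajc13, -0.15 to 0.0598 for Dnajb11, -0.039 to 0.19 for Dnaja3, -0.15 to 0.19 for Dnajb9, -0.16 to 0.067 for Dnaja4, -0.0146 to 0.23 for Dnaja2 and -0.0051 to 0.17 for Dnajb1. The cause was not tested.

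With a limit of 1.5-fold in place of 2-fold, 1 member was higher and 4 were lower in the granule-marker library of both marks. In both libraries with low granule markers, 1 member lay below all 15 others without quantile normalization, against 5.33% of all genes. With the mean of all probe sets the count was also 1, against 4.57%. The count lower in the smaller array series ran from 3 to 6 without 1 sample, against 1.62% to 5.4% of all genes. The count higher ran from 0 to 2, against 1.7% to 8.26%. These last 2 sets of alternatives, and the marker lists without the library labelled 433, were chosen after seeing the data.

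No paired analysis was possible because KO and WT share no replicate number. Signal over background limits the dim members, and the array number the rest. The meaning of the CA13 mark and of the array series numbers is not given, and the label of 433 goes against its markers. Age and sex cannot be weighed. RMA values were not used here.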
